A study of Mus musculus with 9 samples.

Results

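The genes described here are the transcription factor Stat3, 4 receptor chains of the IL-6 cytokine family (Il6ra, Il6st, Lifr and Osmr), 3 ligands of that family (Il6, Lif and Osm) and the feedback inhibitors Socs1 and Socs3. They were chosen by name, as the core of the IL-6 family pathway, and make up 10 of the 52550 genes in the deposited count table. All 10 were found in it.

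IL-6 family cytokines act through receptor complexes that share the chain gp130, the product of Il6st. IL-6 binds IL-6 receptor alpha (Il6ra) before it engages gp130, whereas LIF signals through LIFR with gp130 and oncostatin M through OSMR with gp130. These receptors activate JAK kinases, which phosphorylate STAT3, and STAT3 then enters the nucleus and drives target genes that include Socs3, whose product blocks the receptor in a negative feedback loop. In skin, keratinocytes respond to oncostatin M and to other STAT3-activating cytokines, and active STAT3 in keratinocytes is a known feature of psoriatic lesions. The RNA level of these genes does not measure the phosphorylation of STAT3.

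The libraries were made from epidermal sheets of the ears of wild type C57BL/6 mice (C57BL/6J in the methods), which the methods give as male and the labels as 8 weeks old. In the control group (VAS + H2O) the mice received Vaseline on the ears and ddH2O by gavage, and in the model group (IMQ + H2O) they received imiquimod, a Toll-like receptor 7 agonist that induces psoriasis-like dermatitis, and ddH2O. In the treated group (IMQ + XYF) they received imiquimod and Xiao-Yin-Fang (XYF), a herbal decoction, at 23.3 mg/g in 200 μl. Cream was applied for 5 days and gavage was given for 10 days, and each group had 3 libraries. The groups are given as n = 3 each and the ear sheets as coming from 2 mice, which cannot be tied to libraries, and no label states that the libraries of a group are separate animals, so p-values measure the spread between these libraries, which may be partly technical.

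Libraries held 30298275 to 64771160 counts, so that 3 counts, taken as the floor of detection, equalled 0.0463 to 0.099 CPM (counts scaled to library size). This floor covers counting error only. Keratinocyte genes were abundant in all 9 libraries, with a summed level of 28300 to 46100 CPM for 5 differentiation genes. The 5 basal genes summed to 12800 to 17500 CPM in the controls, 19400 to 23200 CPM in the model group and 20900 to 22100 CPM with XYF, so that they were higher in the same libraries as Stat3 and Osmr, and 1 of the 5 passed the test against VAS + H2O in each imiquimod group. The part of this in the levels of Stat3 and Osmr was not tested. The sheets also held RNA of genes typical of dermis and of ear cartilage. The 7 dermal fibroblast genes summed to 73.0 to 646 CPM in VAS + H2O, 48.0 to 53.3 CPM in IMQ + H2O and 73.5 to 210 CPM in IMQ + XYF. The 8 cartilage genes summed to 248 to 547 CPM, 80.6 to 122 CPM and 173 to 259 CPM in the same order. The 7 T cell genes summed to 47.3 to 55.5 CPM, 27.7 to 36.5 CPM and 25.4 to 37.7 CPM. VAS + H2O replicate 2, which had the highest fibroblast and cartilage sums, also had 243 CPM of 5 skeletal muscle genes against 2.79 and 3.76 CPM in the other controls. IMQ + H2O replicate 3 and IMQ + XYF replicate 1 stood apart from the rest by 1642 and 1459 counts of the granulocyte receptor gene Csf3r, against 0 to 214 in the other 7 libraries. The 5 differentiation genes summed to 29200 CPM in IMQ + H2O replicate 3, against 46100 and 39200 CPM in replicates 1 and 2. A fit without IMQ + H2O replicate 3 therefore leaves out more than its Csf3r counts.

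Promoter sequences were available from RefSeq (GRCm38.p6) for 9 of the 10 genes, as windows of 300 bases from 250 bases before to 50 bases after a RefSeq start, and no sequence was printed for Osm. RefSeq starts lie at or inside the ends of the GENCODE gene spans given here and need not be the start used in epidermis. Each window was searched on both strands for the STAT motif TTCNNNGAA, the AP-1 motif TGANTCA and the NF-kappaB motif (GGG, any 2 bases, TTTCC), which were present in 8.30%, 7.81% and 1.63% of all 32851 windows. The 4 windows below belong to the feedback gene Socs3, to Osmr and Lif, which were higher after imiquimod, and to Lifr, which was lower. Capitals mark the motifs that were found.
Socs3, chr11:117969317-117969616, minus strand: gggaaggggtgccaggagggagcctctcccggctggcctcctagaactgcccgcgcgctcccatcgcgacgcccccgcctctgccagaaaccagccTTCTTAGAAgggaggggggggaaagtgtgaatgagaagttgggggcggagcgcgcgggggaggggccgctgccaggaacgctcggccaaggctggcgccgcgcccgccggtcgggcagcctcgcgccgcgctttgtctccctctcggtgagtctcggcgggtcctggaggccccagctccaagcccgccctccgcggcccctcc
Osmr, chr15:6874264-6874563, minus strand: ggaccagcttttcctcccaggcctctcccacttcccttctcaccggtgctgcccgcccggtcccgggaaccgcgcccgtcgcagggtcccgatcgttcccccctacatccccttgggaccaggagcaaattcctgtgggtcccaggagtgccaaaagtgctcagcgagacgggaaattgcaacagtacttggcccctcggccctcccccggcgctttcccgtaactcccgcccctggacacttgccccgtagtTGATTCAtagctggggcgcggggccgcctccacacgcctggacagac
Lif, chr11:4257318-4257617, plus strand: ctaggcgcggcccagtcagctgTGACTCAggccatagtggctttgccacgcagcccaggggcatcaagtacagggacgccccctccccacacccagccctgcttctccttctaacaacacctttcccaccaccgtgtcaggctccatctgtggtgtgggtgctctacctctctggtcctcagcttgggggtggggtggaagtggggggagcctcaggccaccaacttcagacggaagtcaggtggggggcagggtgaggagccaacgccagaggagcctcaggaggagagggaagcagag
Lifr, chr15:7129322-7129621, plus strand: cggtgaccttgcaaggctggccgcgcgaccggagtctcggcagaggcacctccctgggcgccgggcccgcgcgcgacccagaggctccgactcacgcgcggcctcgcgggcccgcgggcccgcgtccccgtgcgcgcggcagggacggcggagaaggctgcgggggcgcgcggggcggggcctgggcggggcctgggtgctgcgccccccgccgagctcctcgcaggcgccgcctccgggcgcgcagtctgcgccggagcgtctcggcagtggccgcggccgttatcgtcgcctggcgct
The Socs3 window held the STAT motif TTCTTAGAA from base -154 to -146 counted from the start. The Osmr window held an AP-1 motif, TGATTCA, from base 3 to 9, and the Lif window held another, TGACTCA, from base -228 to -222. The Lifr window held none of the motifs, had a GC content of 81.3% and contained 53 CpG dinucleotides. A second RefSeq start of Lifr gave a window with a GC content of 53.3% and 4 CpG dinucleotides, again without a motif. Il6 had both an AP-1 motif (TGAGTCA, -249 to -243) and an NF-kappaB motif (GGGATTTTCC, -44 to -35), while Stat3, Socs1, Il6ra and Il6st had none. These matches describe the letters of the windows and were not tested for binding.

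To find how imiquimod dermatitis altered the pathway, IMQ + H2O was compared with VAS + H2O. Stat3, Osmr and Lif rose and Lifr fell, while Socs1, Socs3, Il6ra, Il6st and Il6 did not pass the test and Osm was not tested because it failed the filter on low counts. The test was the quasi-likelihood test of edgeR with Benjamini-Hochberg adjustment over all genes, and an adjusted p of at most 0.05 passed it. A differentially expressed gene (DEG) had, in addition, a log2 fold change of 1 or more in either direction. By this definition, Lifr was the sole DEG among the 9 genes tested, where 7.68% of all 18009 genes tested were DEGs (3.64% higher and 4.04% lower). By the adjusted p alone, 4 of the 9 passed, 3 of them higher and 1 lower, where 22.1% of all genes did (12.7% higher and 9.41% lower). The groups did not overlap for 5 genes that were higher (Stat3, Socs1, Osmr, Il6 and Lif) and 2 that were lower (Il6ra and Lifr), where 45.0% of all genes tested had groups without overlap (23.4% higher and 21.6% lower).

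**Figure D1:**
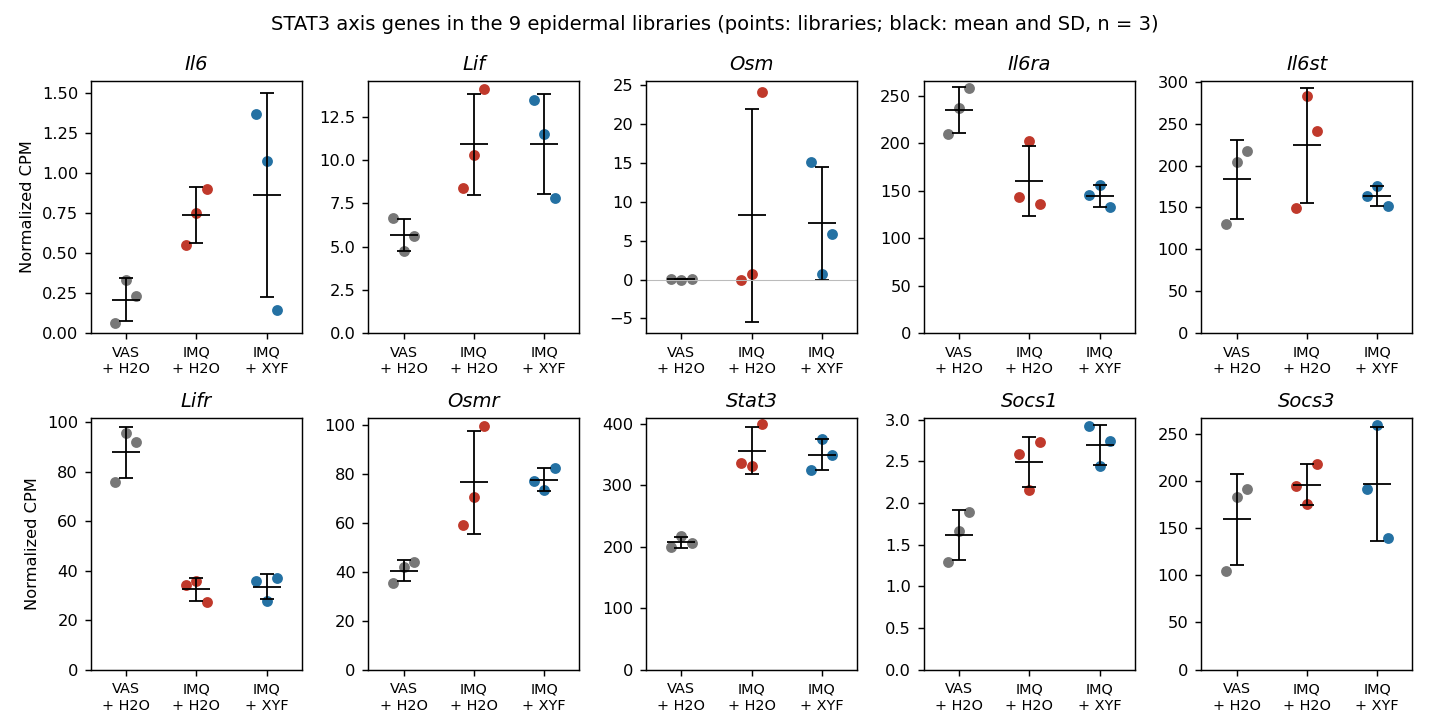
Normalized CPM (y axis, from 0 except for Osm, whose SD reaches below 0) of each gene in the 3 VAS + H2O (grey), 3 IMQ + H2O (red) and 3 IMQ + XYF (blue) libraries, with black bars for the mean and SD. Stat3, Osmr and Lif lie higher and Lifr lower in all 6 imiquimod libraries than in the controls, and Osm is high in only some of the imiquimod libraries.

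The ligands were expressed at low levels. Il6 (ENSMUSG00000025746, GRCm38 chromosome 5, 30013114 to 30019981) had 3, 11 and 8 counts in the controls, 16, 29 and 39 in the model libraries, and 87, 35 and 5 with XYF. The IMQ + H2O libraries all exceeded the controls, but in IMQ + XYF replicates 1 and 2 had the highest levels of all and replicate 3 lay among the controls. The log2 fold change was 1.84 (SE 0.58) for IMQ + H2O against VAS + H2O, with an edgeR adjusted p of 0.0617, and 2.10 (SE 0.88) for IMQ + XYF against VAS + H2O, with an adjusted p of 0.119.

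Lif (ENSMUSG00000034394, chromosome 11, 4257557 to 4272514), which encodes leukemia inhibitory factor, stood at 6.64, 4.77 and 5.59 CPM in VAS + H2O, 8.36, 10.3 and 14.1 CPM in IMQ + H2O, and 13.5, 11.5 and 7.78 CPM in IMQ + XYF. All 6 imiquimod libraries were above the highest control. Lif rose by 0.93 on the log2 scale (SE 0.23) in IMQ + H2O, with an edgeR adjusted p of 0.0328, which did not hold in 5 of the 6 fits that left out 1 library. Without VAS + H2O replicates 1, 2 or 3 or IMQ + H2O replicates 2 or 3 the adjusted p was 0.0589, 0.1, 0.0735, 0.0600 and 0.0766.

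Osm (ENSMUSG00000058755, chromosome 11, 4236420 to 4241026), the gene of oncostatin M, was near 0 in control epidermis, with 5, 0 and 3 counts. It had 0, 30 and 1041 counts in IMQ + H2O and 961, 23 and 208 in IMQ + XYF. The imiquimod libraries therefore differed more among themselves than those of any other gene described here, and 1 of them had no count, which allows up to 3 counts. In IMQ + H2O the mean of 8.29 CPM had an SD of 13.7 (n = 3). Osm was a DEG in IMQ + XYF against VAS + H2O, with a log2 fold change of 6.68 (SE 1.33) and an edgeR adjusted p of 0.0116, but this was not so with all 9 libraries in 1 fit, where the adjusted p was 0.0579. Its log2 fold change for IMQ + H2O without the filter on low counts was 6.89, with an adjusted p of 0.0911, and Osm was a DEG in that comparison when IMQ + H2O replicate 1 was left out.

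Some genes of granulocytes and monocytes were high in the same libraries as Osm, and others were not. Csf3r, the receptor of granulocyte colony-stimulating factor, had 0, 3 and 3 counts in the controls, 5, 33 and 1642 in the model libraries, and 1459, 43 and 214 with XYF. Retnlg, a neutrophil gene, had 0 counts in all 3 controls and in IMQ + H2O replicate 1, and 662 and 364 counts in the 2 libraries with most Osm. Cd14, a monocyte gene, had 32 to 103 counts in 6 libraries and 2175, 2017 and 383 in the 3 libraries with most Osm. In the 5 libraries with at least 20 counts of both genes, Osm had 0.535 to 0.972 counts for each count of Csf3r. Of the 9 neutrophil genes examined, Elane was at 0 in all 9 libraries and Ly6g had at most 22 counts, and the summed level of the list was 10.9 to 12.7 CPM in VAS + H2O, 49.4 to 135 CPM in IMQ + H2O and 62.5 to 85.5 CPM in IMQ + XYF, mostly from Cxcr2. The 8 monocyte and macrophage genes summed to 39.9 to 50.4, 40.8 to 122 and 38.9 to 94.7 CPM. Within that list Itgam stood at 19.3 and 17 CPM in the 2 libraries with most Osm and at 0.971 to 6.19 CPM in the other 7. Csf1r did not follow Osm, with 30.6 and 26.1 CPM against 24.6 to 38.9 CPM, nor did Adgre1, with 2.82 and 3.03 CPM against 1.18 to 3.54 CPM. Cd68 was at 11.1 and 10.3 CPM against 5.91 to 8.47 CPM. In bulk RNA, more cells of a type and more RNA per cell cannot be told apart, and the part of these cells in the level of Osm was not tested. Without IMQ + XYF replicate 1, the library of that comparison with most Csf3r, Osm was still a DEG in IMQ + XYF against VAS + H2O, where replicate 3 kept 214 counts of Csf3r and 208 of Osm, with a log2 fold change of 5.57 and an edgeR adjusted p of 0.0273.

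**Figure D2:**
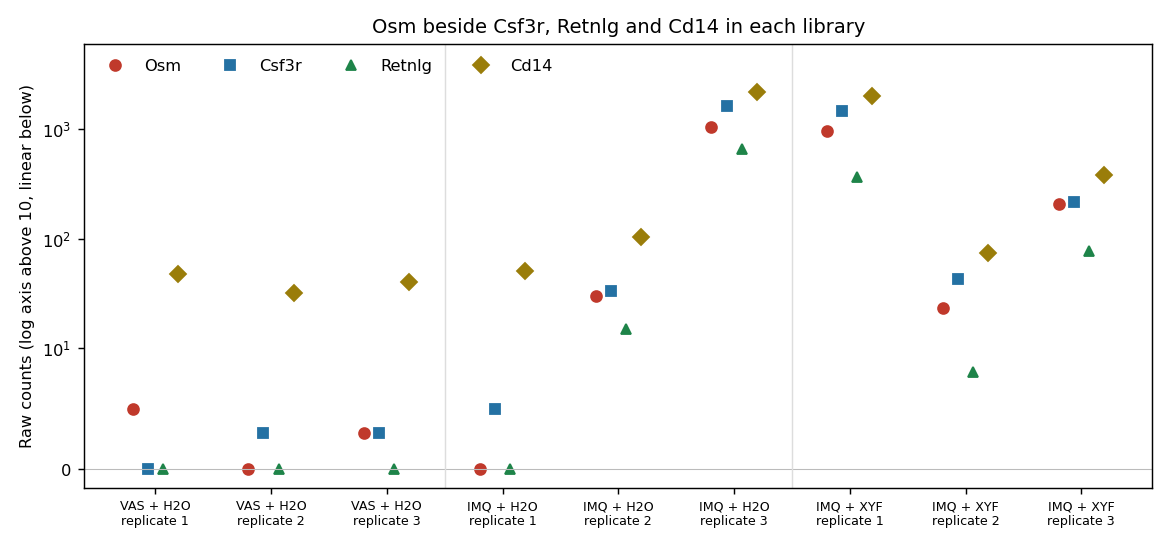
Raw counts (y axis, logarithmic above 10 and linear below) of Osm, Csf3r, Retnlg and Cd14 in each of the 9 libraries (x axis). Osm, Csf3r, Retnlg and Cd14 are highest in IMQ + H2O replicate 3 and IMQ + XYF replicate 1, and Osm, Csf3r and Retnlg are at or near 0 in the controls and in IMQ + H2O replicate 1.

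Among the receptor chains, Lifr fell and Osmr rose. Lifr (ENSMUSG00000054263, chromosome 15, 7090614 to 7197489) stood at 75.9, 95.5 and 92.0 CPM in VAS + H2O, 34.1, 36.0 and 27.2 CPM in IMQ + H2O, and 35.8, 27.8 and 37.0 CPM in IMQ + XYF. The lowest control was above every imiquimod library. Lifr fell by 1.45 on the log2 scale (SE 0.14) in IMQ + H2O, to 0.366 of the control level, with an edgeR adjusted p of 0.00495. It remained a DEG in every alternative fit listed in the closing section, and the log2 fold change was -1.55 to -1.34 when 1 library was left out. Dermal fibroblast and cartilage genes were also lower in IMQ + H2O, where 2 of 7 and 7 of 7 tested passed the adjusted p, and so were T cell genes, of which 3 of 6 did. In IMQ + XYF against IMQ + H2O, all 7 fibroblast and all 7 cartilage genes tested were higher, with median log2 fold changes of 1.41 and 1.46. Of these, 0 and 1 passed the adjusted p, and the log2 fold change of Lifr was 0.05. The part of these tissues in the level of Lifr was not tested. Without VAS + H2O replicate 2, the library with the highest fibroblast sum, the log2 fold change of Lifr was -1.38 with an adjusted p of 0.0220.

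Osmr (ENSMUSG00000022146, chromosome 15, 6813577 to 6874969) stood at 35.5, 42.1 and 43.9 CPM in VAS + H2O, 59.1, 70.7 and 99.7 CPM in IMQ + H2O, and 77.2, 73.3 and 82.4 CPM in IMQ + XYF. Every imiquimod library was above the controls, and the IMQ + H2O libraries spread the most, with replicate 3 highest. Osmr rose by 0.91 on the log2 scale (SE 0.20) in IMQ + H2O, with an edgeR adjusted p of 0.0233. The adjusted p was 0.0750 without VAS + H2O replicate 1 and 0.0674 without VAS + H2O replicate 2, and without IMQ + H2O replicate 3, the library of this comparison with most Csf3r, the log2 fold change was 0.67 with an adjusted p of 0.0333.

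Il6ra (ENSMUSG00000027947, chromosome 3, 89864059 to 89913196), the IL-6-binding chain, was the most abundant receptor chain in control epidermis. It stood at 210, 237 and 258 CPM in VAS + H2O, 143, 203 and 136 CPM in IMQ + H2O, and 146, 156 and 133 CPM in IMQ + XYF. The controls were above all imiquimod libraries, of which IMQ + H2O replicate 2 came closest. The log2 fold change was -0.56 (SE 0.17) for IMQ + H2O, with an edgeR adjusted p of 0.0536, and the adjusted p was 0.0134 by DESeq2, 0.0284 with all 9 libraries in 1 edgeR fit and 0.0186 without IMQ + H2O replicate 2. An antisense gene, Gm42809, shares 242 bases with the exons of Il6ra, which is 2.8% of them.

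Il6st (ENSMUSG00000021756, chromosome 13, 112464070 to 112510086), which encodes the shared chain gp130, stood at 130, 204 and 217 CPM in VAS + H2O, 149, 283 and 241 CPM in IMQ + H2O, and 164, 176 and 152 CPM in IMQ + XYF. The groups overlapped, and replicate 1 was the lowest library in both the control and the IMQ + H2O group. The log2 fold change for IMQ + H2O was 0.28 (SE 0.28), with an edgeR adjusted p of 0.508.

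The ratio of 2 genes within a library does not depend on its normalization. Osmr had 0.467, 0.440 and 0.478 counts for each count of Lifr in the controls, 1.73, 1.96 and 3.66 in IMQ + H2O, and 2.16, 2.64 and 2.23 in IMQ + XYF. Lifr counts thus exceeded Osmr counts in every control and Osmr counts exceeded Lifr counts in every imiquimod library. These counts are not divided by gene length. When levels were divided by the length of the longest transcript, the ranges of Lifr and Osmr in VAS + H2O overlapped. The log2 ratio was higher by 2.33 in the model group than in the controls, with a two-sided exact permutation p of 0.1, which is the smallest that 3 against 3 libraries can give (adjusted p = 0.225 over 9 comparisons). Since Osmr was higher and Lifr lower without overlap, the separation of their ratio follows from the 2 genes and is not a further test. The ratio of Il6ra to Il6st was 1.62, 1.16 and 1.19 in the controls, 0.958, 0.716 and 0.567 in IMQ + H2O and 0.892, 0.891 and 0.873 in IMQ + XYF, again without overlap with the controls and with the same exact permutation p of 0.1 for both imiquimod groups.

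**Figure D3:**
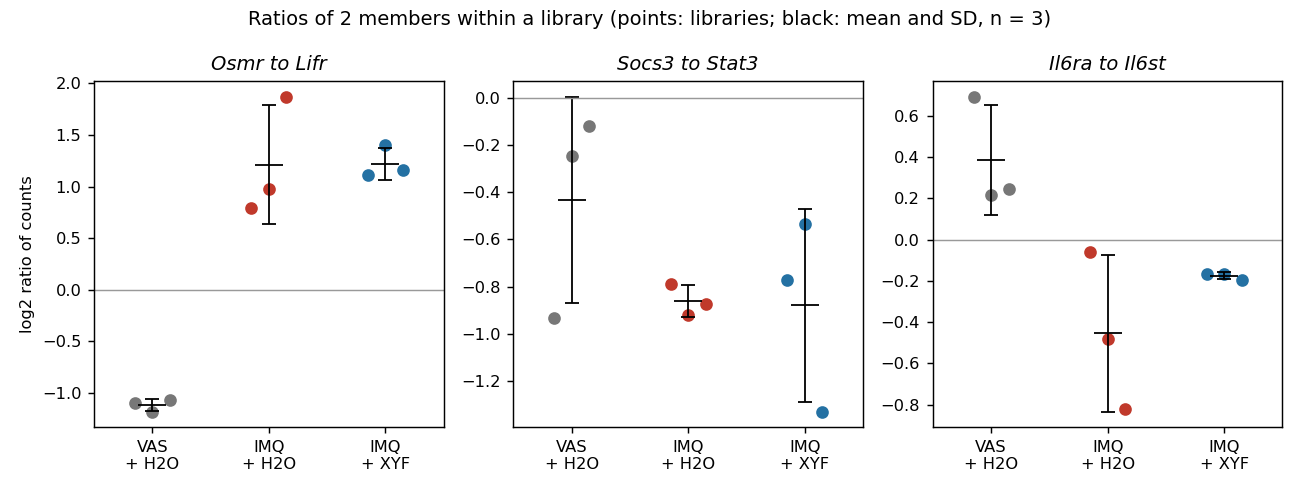
Log2 ratio of the counts of 2 genes within each library (y axis, not corrected for gene length) for Osmr to Lifr, Socs3 to Stat3 and Il6ra to Il6st, with points for libraries and black bars for the mean and SD (n = 3). Osmr to Lifr is below 0 in all controls and above 0 in all imiquimod libraries, whereas Socs3 to Stat3 overlaps between the groups.

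Per kilobase of exon, Il6ra made up 49.5% ± 2.96 (SD, n = 3) of the summed level of the 4 receptor chains in the controls, 38.8% ± 5.52 in the model group and 40.9% ± 1.71 with XYF. The share of Lifr was 14.8% ± 0.841, 6.44% ± 1.67 and 7.60% ± 1.37, and that of Osmr was 6.08% ± 0.261, 13.3% ± 3.54 and 15.6% ± 1.54. Il6st made up the rest, with 29.6% ± 3.61, 41.4% ± 5.28 and 35.9% ± 1.16. The level of Osmr between genes depended most on the length used, since its exons span 12113 bases in all and its longest transcript 5491.

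Stat3 (ENSMUSG00000004040, chromosome 11, 100885098 to 100939540) varied less than the other 9 genes among the libraries of VAS + H2O and of IMQ + H2O, with coefficients of variation of 4.21% and 10.8%. It stood at 199, 217 and 207 CPM in VAS + H2O, 337, 331 and 400 CPM in IMQ + H2O, and 325, 375 and 349 CPM in IMQ + XYF. Every imiquimod library was above every control, and the 2 imiquimod groups overlapped. Stat3 rose by 0.76 on the log2 scale (SE 0.10) in IMQ + H2O, a fold of 1.70, with an edgeR adjusted p of 0.00806. It passed the adjusted p in every alternative fit of this comparison, and its log2 fold change was 0.67 to 0.85 when 1 library was left out. The neighbouring gene Stat5a, on the opposite strand, shares 72 bases with the exons of Stat3, which is 0.8% of them.

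Stat3 had the highest mean share of the 7 STAT factors in both imiquimod groups, and Stat6 had it in the controls. Per kilobase it made up 25.3% ± 2.57 of the summed STAT level in the controls, 33.6% ± 2.80 in the model group and 32.5% ± 0.491 with XYF. Stat6, which transmits IL-4 and IL-13 signals, had 40.0% ± 1.69, 31.3% ± 0.799 and 29.7% ± 2.83 in the same order. No other STAT factor passed the test in IMQ + H2O among the 5 tested.

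The feedback gene Socs3 (ENSMUSG00000053113, chromosome 11, 117966079 to 117970047) did not pass the test although Stat3 did. Its level was 104, 183 and 191 CPM in VAS + H2O, 195, 175 and 218 CPM in IMQ + H2O, and 191, 259 and 139 CPM in IMQ + XYF. The groups overlapped, with the lowest library in VAS + H2O and the highest in IMQ + XYF. The log2 fold change for IMQ + H2O was 0.29 (SE 0.23, 95% interval -0.26 to 0.83), with an edgeR adjusted p of 0.400. The log2 ratio of Socs3 to Stat3 differed by -0.43 between IMQ + H2O and the controls, with an exact permutation p of 0.4 (adjusted p = 0.514).

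Socs3 was nevertheless the most abundant of the 10 genes per kilobase in all 3 groups, at 55.1 ± 16.5, 67.8 ± 7.54 and 67.8 ± 20.8 CPM per kilobase (SD, n = 3), and its range did not overlap that of the next gene. With the longest transcript as the length, the ranges of Socs3 and Stat3 overlapped in IMQ + XYF. Socs3 made up 66.0% ± 4.82, 70.3% ± 3.81 and 71.3% ± 6.38 of the summed level of the 8 SOCS family genes. In VAS + H2O the order per kilobase after Socs3 was Il6ra, Stat3, Il6st, Lifr, Osmr, Lif, Socs1, Il6 and Osm, and of these neighbours only Il6 and Osm had ranges that overlapped. With the longest transcript as the length, Stat3 preceded Il6ra in VAS + H2O, and the ranges of Il6ra and Il6st and of Lifr and Osmr overlapped.

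Socs1 (ENSMUSG00000038037, chromosome 16, 10782240 to 10785536), an inhibitor of JAK kinases, was far less abundant. It stood at 1.29, 1.67 and 1.89 CPM in VAS + H2O, 2.59, 2.16 and 2.73 CPM in IMQ + H2O, and 2.92, 2.44 and 2.74 CPM in IMQ + XYF. All imiquimod libraries were above the controls. The log2 fold change was 0.61 (SE 0.24) for IMQ + H2O, with an edgeR adjusted p of 0.107, and 0.74 (SE 0.22) for IMQ + XYF against VAS + H2O, with an adjusted p of 0.0430. The latter was lost in 5 of 6 fits that left out 1 library, at 0.111 and 0.0850 without VAS + H2O replicates 1 and 2 and 0.121, 0.0720 and 0.112 without IMQ + XYF replicates 1, 2 and 3.

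To learn whether XYF altered the pathway under imiquimod, IMQ + XYF was compared with IMQ + H2O. None of the 10 genes passed the test of edgeR, with adjusted p of 0.979 to 1, where 0.0281% of the 17793 genes tested were DEGs. All 10 were tested, none had an unadjusted p under 0.05, where 5.43% of all genes did, and none was a DEG by DESeq2, where 0.755% of all genes were. The groups overlapped for every one, where 10.7% of all genes tested had groups without overlap. The intervals rest on the spread between these libraries, which may be partly technical. Each is for a single gene, without adjustment for the number of genes. The 95% interval of the log2 fold change was -0.26 to 0.22 for Stat3, -0.41 to 0.47 for Osmr, -0.31 to 0.42 for Lifr and -0.51 to 0.52 for Socs3. For Il6ra it was -0.52 to 0.24, for Socs1 -0.31 to 0.56 and for Lif -0.61 to 0.64. Il6st had the lowest unadjusted p, 0.0827, with a log2 fold change of -0.45 and an interval of -0.97 to 0.08. The data say little about Il6, with an interval of -1.38 to 1.87, and about Osm, with an interval of -4.10 to 3.73, whose log2 fold change turned from -0.18 to 4.12 without IMQ + H2O replicate 3 and to 2.995 without both libraries with most Csf3r.

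**Figure D4:**
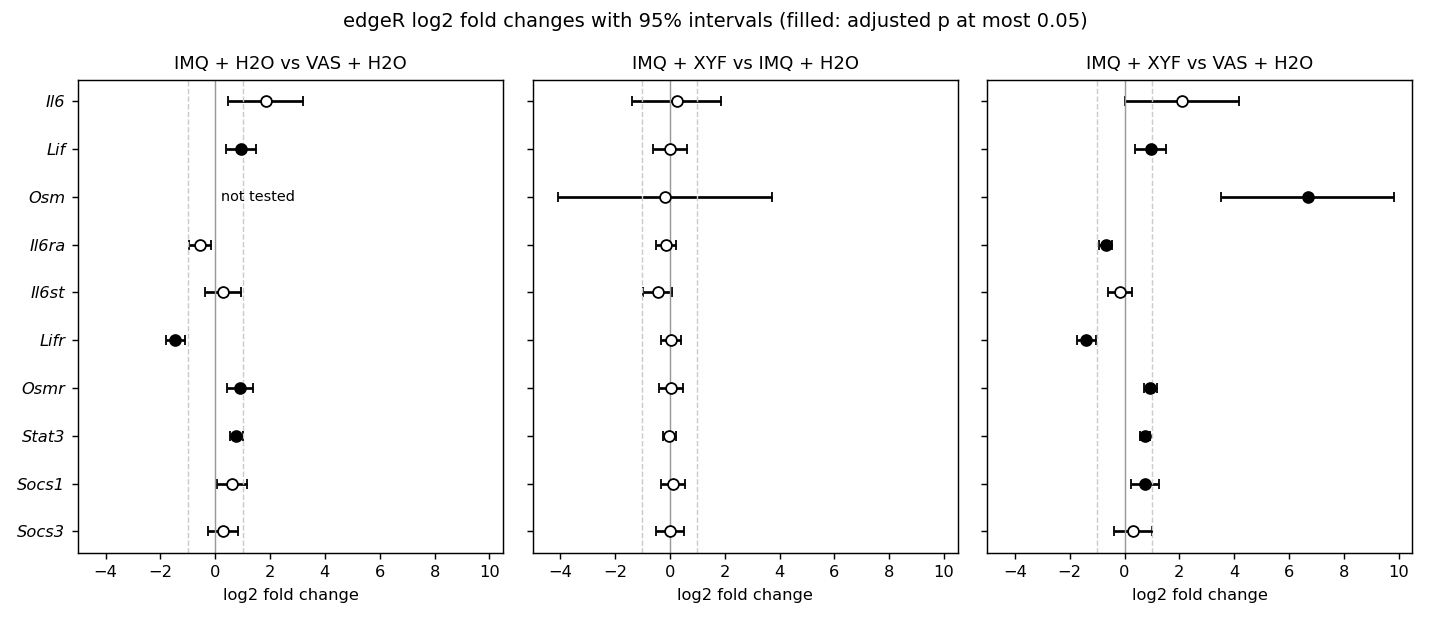
Log2 fold changes by edgeR (x axis) with 95% intervals for each gene in the 3 comparisons, with filled points where the adjusted p was at most 0.05 and dashed lines at -1 and 1. In IMQ + XYF against IMQ + H2O all intervals include 0, and those of Stat3, Osmr, Lifr, Il6ra, Il6st, Lif, Socs1 and Socs3 stay within 1 of it.

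IMQ + XYF was also compared with VAS + H2O, which shares its controls with the first comparison and its treated libraries with the second. Lifr and Osm were DEGs among the 10 genes, where 7.64% of the 17954 genes tested were (4.58% higher and 3.05% lower). By the adjusted p alone 7 of the 10 passed, 5 of them higher and 2 lower, where 28.7% of all genes did (16.7% higher and 12.0% lower). Stat3 rose by 0.75 on the log2 scale (SE 0.08, edgeR adjusted p = 0.00137) and Osmr by 0.94 (SE 0.10, edgeR adjusted p = 0.00151). Lif rose by 0.95 (SE 0.24, edgeR adjusted p = 0.0255), which was lost in 4 of 6 fits that left out 1 library, with adjusted p of 0.0741 and 0.0638 without VAS + H2O replicates 2 and 3 and 0.0758 and 0.0707 without IMQ + XYF replicates 1 and 2. Lifr fell by 1.39 (SE 0.14, edgeR adjusted p = 0.00136) and Il6ra fell by 0.69 (SE 0.10, edgeR adjusted p = 0.00385). Socs3 and Il6st had log2 fold changes of 0.30 and -0.16, with edgeR adjusted p of 0.475 and 0.552. The groups did not overlap for Stat3, Socs1, Osmr, Lif and Osm, which were higher, and for Il6ra and Lifr, which were lower, where 47.5% of all genes tested had groups without overlap (25.1% higher and 22.4% lower).

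The rest of the pathway was described by 62 other genes in 7 lists. The lists were chosen with earlier results of these data known, so their shares beside those of all genes are not a test. In IMQ + H2O against VAS + H2O, 55 were tested, of which 9 were higher DEGs and 1 was a lower DEG, with a median log2 fold change of 0.11 over the 55 and -0.03 over all genes tested. Most of the DEGs were STAT3 target genes, of which 8 of 23 tested were higher DEGs and none was lower, where 3.64% of all genes tested were higher DEGs. The median log2 fold change of these 23 was 0.67. Of the 23, 13 did not pass the adjusted p. Their log2 fold changes ran from -0.72 for Bcl2l1 to 2.42 for Lrg1, with 0.05 for Junb and -0.08 for Pim1. Of the 5 target genes with the lowest adjusted p among the DEGs, Lcn2, which encodes the iron-binding antimicrobial protein lipocalin 2, rose from 1.79 ± 0.563 to 74.5 ± 39.4 CPM, a log2 fold change of 5.35 (SE 0.47, edgeR adjusted p = 0.00355). Bcl3, an atypical IkappaB protein, rose by 3.76 (SE 0.34, edgeR adjusted p = 0.00379). Vegfa, an angiogenic growth factor, rose by 1.20, the receptor gene Il4ra by 1.76 and Hif1a, a transcription factor of the hypoxia response, by 1.21, with adjusted p of 0.00994, 0.0117 and 0.0137 by edgeR. The other 3 were Icam1, Saa3 and Il24, named after their values were seen. Il24 had no counts in VAS + H2O and a mean of 20.5 ± 16 CPM in IMQ + H2O, at least 255-fold higher when each control library is set to 3 counts.

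Among the other ligands, Clcf1, a cytokine that signals through the CNTF receptor, rose from 15 ± 0.436 to 40.3 ± 19.1 CPM, a log2 fold change of 1.41 (SE 0.32, edgeR adjusted p = 0.0249). None of the other receptors passed the test among 3 tested. Of the 4 JAK kinases, Tyk2 fell by 0.32 (edgeR adjusted p = 0.0283) without being a DEG. Of the 6 other SOCS family genes, Socs5 and Socs6 rose by 0.72 and 0.37 (edgeR adjusted p = 0.0192 and 0.0278), and of 8 other negative regulators Pias3 fell by 0.57 (edgeR adjusted p = 0.0224).

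In IMQ + XYF against IMQ + H2O, none of the 56 genes tested passed the edgeR test, none was a DEG by DESeq2, and the median log2 fold change was -0.05. The 23 STAT3 target genes had a median of -0.06, with values of 0.06 for Lcn2, -0.04 for Bcl3, -0.07 for Vegfa, -0.06 for Il4ra and 0.01 for Hif1a. In IMQ + XYF against VAS + H2O, 11 of 54 genes tested were higher DEGs and 1 was a lower DEG. They included Clcf1 and the receptor gene Cntfr, with log2 fold changes of 1.08 and 2.001, and 8 of 22 STAT3 target genes. Of all genes tested 4.58% were higher DEGs, but the list was chosen with earlier results known, so the 2 shares are not a test. The count of 12 DEGs was 7 without IMQ + XYF replicate 1, the library of this comparison with most Csf3r.

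**Figure D5:**
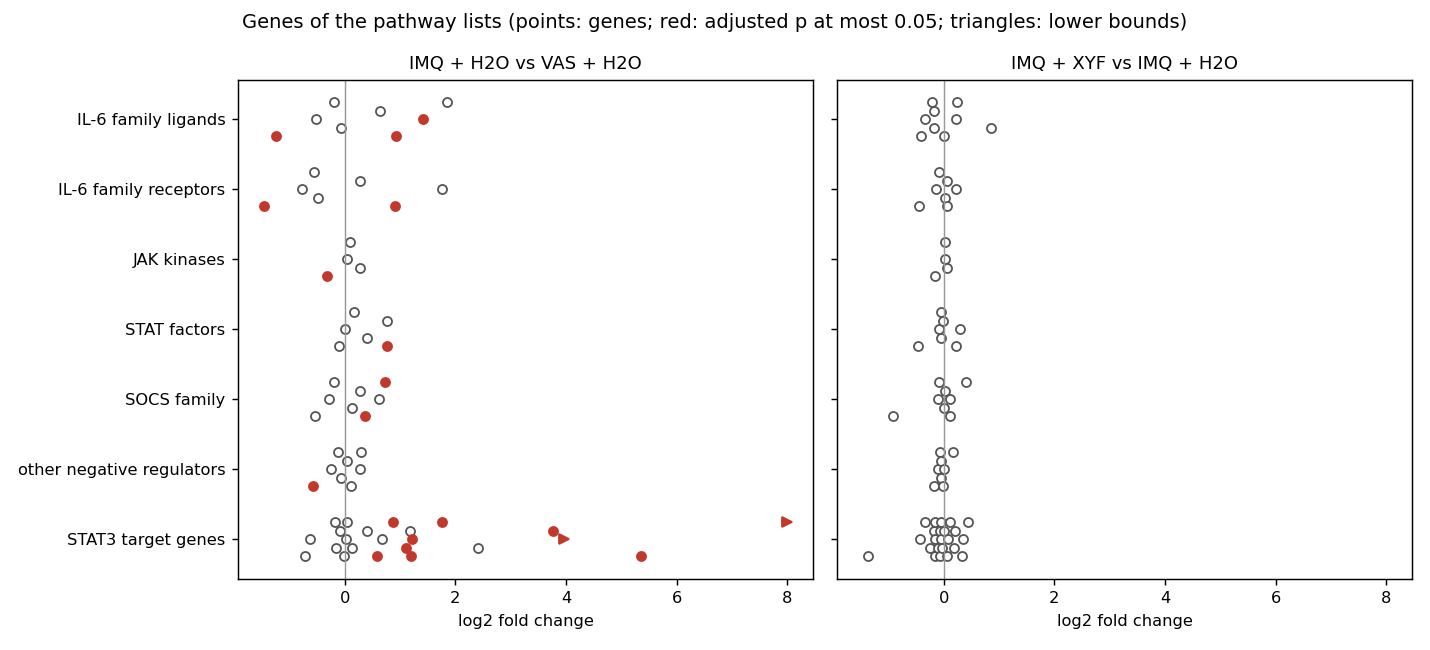
Log2 fold changes by edgeR (x axis) of the genes tested in each pathway list (y axis, the 10 genes of this report included), with red where the adjusted p was at most 0.05 and triangles for lower bounds of genes without counts in VAS + H2O. STAT3 target genes extend furthest to the right in IMQ + H2O against VAS + H2O, and no gene is red in IMQ + XYF against IMQ + H2O.

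Lastly, the genes whose log2 CPM followed that of Stat3, Osmr and Socs3 most closely over the 9 libraries were listed. They were taken from 12980 genes with a mean of at least 1 CPM. Pearson's r with Stat3 was 0.995 for Ksr1, 0.995 for Hyou1 and 0.993 for Rab31. Osmr was matched by Ptgfrn (0.996), Ssr3 (0.991) and Nrg1 (0.991). Socs3 had lower values, at 0.939 for Azin1, 0.930 for Thap6 and 0.930 for Micalcl. These values describe 9 libraries in 3 groups and share the difference between the groups, so no p is given.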

How the data were processed

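RNA from ear epidermis was measured by RNA sequencing in 9 libraries, 3 in each of 3 groups taken from the labels. The authors aligned reads with STAR to GRCm38 (Ensembl release 90 per the methods), assembled transcripts with StringTie and tested with DESeq2, and the submitters' notes also list FastQC, Cuffnorm, STAR 2.5 and DESeq 1.22.1. The deposited values are raw counts per gene without normalization, treated as whole reads. The counting tool and its strand setting are not given in the sources used here, and the labels call the libraries strand-specific while the paper names a kit that does not mark strand, so reads of overlapping opposite genes may be mixed. The table has 52550 genes, 21327 of them at 0 in every library. Depth ranged from 30298275 to 64771160 counts. Dermal libraries were not analysed here, and some list genes that the naming rule would add are not reported here.

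Each comparison was fitted on its own 6 libraries in R 4.3.3 with edgeR 4.0.16 (TMM, filterByExpr, glmQLFit and glmQLFTest) with Benjamini-Hochberg adjustment over the genes tested. Standard errors were derived from the test statistic. CPM used TMM factors (0.956 to 1.06) over all 9 libraries and a length from GENCODE M21 exons. Within-library ratios were tested between groups by two-sided exact permutation. Besides the 10 genes, the text names list genes that are DEGs (at most 5 per list and comparison, by adjusted p) and the 3 genes most correlated with Stat3, Socs3 and Osmr, and marker genes and list genes outside this rule were named after their values were seen. The genes and the lists were chosen with earlier results of these data known. Alternatives were DESeq2 1.42.0, RLE size factors, a block for the replicate number, 1 fit over all 9 libraries, no filter, a filter of at least 10 counts in each library, calls by the adjusted p alone, the longest transcript as the length, each library left out, and, added after seeing the data, the libraries with most Csf3r left out (IMQ + H2O replicate 3 and IMQ + XYF replicate 1, of which each comparison with VAS + H2O holds 1). The fits were tested on simulated data.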

Additional observations from a re-analysis of the deposited data

How the results depend on the processing

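Of the 10 genes, 1, 0 and 2 were DEGs in IMQ + H2O against VAS + H2O, IMQ + XYF against IMQ + H2O and IMQ + XYF against VAS + H2O, and Lifr was a DEG in every alternative of the first and last. In the first, leaving out 1 library gave 1 to 4 (2 without VAS + H2O replicate 3, where Osmr was added, and 4 without IMQ + H2O replicate 1, where Osmr, Lif and Osm were), and the adjusted p alone gave 4. In the last, 1 remained with at least 10 counts in every library, where Osm was not tested, and 1 with all 9 libraries in 1 fit, leaving out 1 library gave 2 to 4 (4 without IMQ + XYF replicate 3), and the adjusted p alone gave 7. The 62 other pathway genes had 10, 0 and 12 DEGs. The adjusted p alone gave 16 in the first comparison, and in the last leaving out 1 library gave 7 to 12, the 7 without IMQ + XYF replicate 1. Leaving out both libraries with most Csf3r differs from leaving out 1 library in IMQ + XYF against IMQ + H2O alone, since each of the other comparisons holds 1 of them. Socs1 in IMQ + XYF against VAS + H2O had an edgeR adjusted p of 0.0699 without the filter. The cause of these changes was not tested, apart from the lost test of Osm.

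In IMQ + XYF against IMQ + H2O, where none of the 10 genes passed the test, some log2 fold changes near 0 changed sign. Leaving out 1 library gave -0.071 to 0.066 for Stat3, -0.24 to 0.20 for Socs3, -0.13 to 0.26 for Osmr, -0.25 to 0.065 for Il6ra, -0.064 to 0.17 for Lifr, -0.29 to 0.73 for Il6, -0.18 to 0.23 for Lif and -1.33 to 4.12 for Osm. Without both libraries with most Csf3r the values were 0.12 for Stat3, -0.11 for Lifr, -0.12 for Il6 and 2.995 for Osm. RLE size factors gave -8.4e-05 for Socs3. Replicate numbers are shared by the groups, and the correlations of same-numbered libraries were 0.00669 to 0.0292, -0.133 to 0.105 and -0.055 to 0.102 in the 3 comparisons. Differently numbered libraries gave -0.0404 to 0.0314, -0.223 to 0.172 and -0.209 to 0.144. These values do not settle whether the numbers pair the libraries. With the replicate number as a block the DEGs among the 10 genes were again 1, 0 and 2, and Socs3, Il6 and Osm in IMQ + XYF against IMQ + H2O had log2 fold changes of -0.033, -0.047 and 0.69. The block moved Lif in IMQ + H2O to an edgeR adjusted p of 0.0680 and Socs1 in IMQ + XYF against VAS + H2O to 0.0995. It moved Il6st in IMQ + H2O from 0.508 to 0.125. The few counts of Il6 and Osm limit the precision of their fold changes.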
